A study of Mus musculus with 12 samples.

Results

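Untreated mouse embryonic stem cells that lack Gcn2 were compared with untreated wild-type cells by ribosome profiling, which counts ribosome footprints, the stretches of mRNA that ribosomes shield from nuclease. The comparison uses 4 of the 12 libraries of the study, chosen by genotype and treatment as labelled: biological replicates A and B of the Gcn2 knockout and of wild type. All 4 come from the line ES-E14TG2a, carry a dTAG degron on eRF1, the release factor that reads stop codons, and grew on gelatin in 2i medium, which holds LIF, a GSK3 inhibitor and a MEK inhibitor. None of them received dTAG-13, the compound that triggers degradation of the tagged protein. The other footprint libraries are 2 knockout and 2 wild-type libraries given 500 nM dTAG-13 for 1 h. They enter the fit to estimate the spread between replicates, and their genotype difference is set beside the untreated values. The labels do not give the knockout allele, how many clones it represents or whether replicates A and B were separate cultures, so p-values measure only the spread between these samples. A difference between clones and a difference due to loss of Gcn2 cannot be told apart. Poly(A) RNA was sequenced in wild type only, so a footprint difference here combines the amount of mRNA with how often it is translated.

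Gcn2, encoded by Eif2ak4, is a kinase that is activated by uncharged tRNA and by stalled ribosomes, with the help of its partner Gcn1. It phosphorylates the initiation factor eIF2 and thereby blocks the exchange factor eIF2B, which lowers initiation on most mRNAs and raises it on a few with upstream open reading frames, among them Atf4. The transcription factor ATF4 then turns on genes of amino acid synthesis, amino acid transport and tRNA charging, and the kinases PERK, PKR and HRI reach the same factor from other stresses. The comparison asks what Gcn2 contributes to this output, and to the rest of the translated mRNA, in cells under no added stress.

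The 4 libraries held 17097802 and 16573356 counts in the knockout and 19691716 and 17052771 in wild type. Of 22034 gene symbols, 12267 had enough counts to be tested. Counts are shares of a library and carry no information on the total number of ribosomes at work. Levels are given as CPM, counts scaled to a common total after correction for library size and composition. All 8 stem cell markers, among them Pou5f1, Nanog and Sox2, were well expressed, at 118 to 3667 CPM, and 0 of them passed the test. Their summed level was 8799 and 9118 CPM in the knockout against 9152 and 9230 CPM in wild type. Defining markers of other cells the culture could hold were low. Summed over each set, 5 primitive endoderm markers reached 3.85 to 5.59 CPM, 6 primed or germ layer markers 17.6 to 26.8 CPM, most of it Otx2, 3 trophoblast markers 1.73 to 3.09 CPM, 4 markers of two-cell-like cells 0.0999 to 0.291 CPM, and 6 fibroblast markers 4.14 to 9.15 CPM, with Postn at 0 throughout. Longer lists for these cells reached higher sums through matrix and secreted proteins: 1602 to 1876 CPM for primitive endoderm, mostly Lamc1, Apoe and Sparc, and 1109 to 1453 CPM for fibroblasts, nearly all Fn1. Early lineage genes summed to 524 to 594 CPM, with Nodal highest. In such bulk samples, fewer cells of a type and less RNA per cell cannot be told apart.

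Footprints on Eif2ak4 itself fell in the knockout. The gene, at chr2:118388583-118475234 in mm10, had 2.46 and 2.33 CPM in the knockout libraries A and B against 27.7 and 29.4 CPM in wild type. Both knockout libraries lay far below both of wild type, with 8.39% of the wild-type mean left. The log2 difference was -3.57 (SE 0.223, 95% interval -4.05 to -3.09, edgeR quasi-likelihood adjusted p = 8.19e-06). In dTAG-13 treated cells the same gene stood at 3.10 and 5.36 CPM against 33.97 and 33.2 CPM, a log2 difference of -2.96 and 12.6% of wild type. Wild-type mRNA was at 49.6 and 49.1 CPM. The gene counts do not show where along the transcript the remaining knockout footprints lie.

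Eif2ak4 was the only gene that passed an adjusted p under 0.05, which makes the share of genes called 0.00815%. At an unadjusted p under 0.05 there were 733 genes, 5.98% of those tested, 407 of them with higher and 326 with lower knockout values. DESeq2 called 31 genes, edgeR with the replicate letter as a term 14, and edgeR without a filter on low counts 113. Leaving out knockout replicate B gave 10 calls and leaving out wild-type replicate A gave 4. How close to wild type the other genes lie can be read from their intervals. The 95% interval of the difference stayed inside 2-fold for 10215 genes (83.3%) and inside 1.5-fold for 6847 (55.8%). Among the 8210 better expressed genes, with log2 CPM averaging 3 or more, these shares were 97.9% and 78.5%. For a typical gene, the interval, which is not adjusted for the number of genes, reached 1.30-fold to either side of its estimate. This is not the limit of the adjusted test. With 2 libraries a group, larger estimates were not called either, such as Cenpm at 1.71-fold and Snx20 at 2.49-fold.

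**Figure D1:**
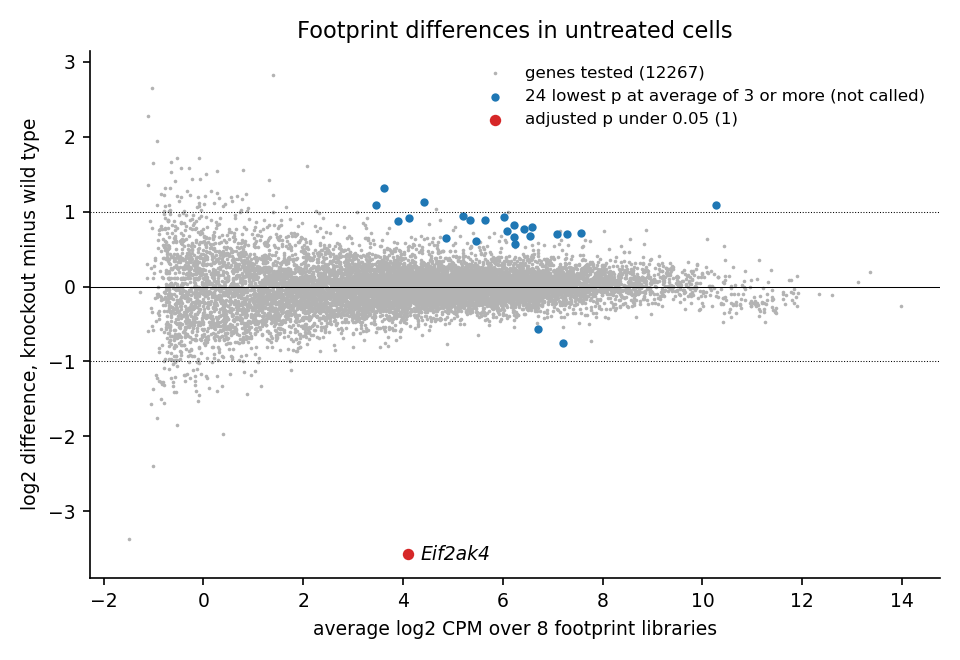
Log2 difference in footprints between untreated Gcn2 knockout and wild-type cells (y axis) against average log2 CPM over the 8 footprint libraries (x axis), with 1 point per gene and dotted lines at 2-fold. Eif2ak4 lies at -3.57, apart from all other genes of its level, and the 24 well-expressed genes with the lowest p among those not called lie mostly above 0.

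No neighbour of Eif2ak4 was called. Within 500 kb of the gene, 9 others were tested and 0 called, with differences from -0.18 to 0.37. Its next gene, Srp14, a subunit of the signal recognition particle that starts 609 bp from the end of Eif2ak4, had 121 and 115 CPM in the knockout against 96.3 and 94.7 CPM in wild type. These values do not overlap, with both knockout libraries higher, as for 15.6% of all genes. The difference of 0.31 on the log2 scale (SE 0.113) did not pass the test (edgeR adjusted p = 0.735). It was 0.43 in treated cells (edgeR adjusted p = 0.0559). By chromosome, the median difference over the 12056 genes with a position ran from -0.03 to 0.01.

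The other parts of the eIF2 pathway gave no call. The list held 25 genes, all tested, with a median difference of -0.01 against -0.01 for all genes. Of these genes, 12 lay above 0 and 13 below, and Eif2ak4 alone was called. Among the other eIF2 kinases, HRI (Eif2ak1) differed by -0.22, PKR (Eif2ak2) by -0.14 and PERK (Eif2ak3) by 0.30 on the log2 scale. Footprints on Eif2ak3 were at 50.2 and 36.9 CPM in the knockout and 33.7 and 37.1 CPM in wild type, so the genotypes overlap. The Gcn2 activator Gcn1 stood at 234.0 and 232.1 CPM against 211.9 and 203.1 CPM, a difference of 0.17 (95% interval -0.09 to 0.42). Impact, which competes with Gcn2 for Gcn1, had 184 and 187 CPM against 193 and 224 CPM, a difference of -0.17 (95% interval -0.41 to 0.08). For both genes the libraries do not overlap, in opposite directions, and neither passed the test. Over the list, both knockout libraries were above both of wild type for 5 genes (20%) and below for 7 (28%). The shares over all genes were 15.6% and 16.1%.

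Subunits of the substrate eIF2 and of the phosphatase that reverses its phosphorylation were not called. The subunit eIF2α (Eif2s1) differed by 0.03 (95% interval -0.22 to 0.28), and the stress-induced phosphatase subunit Ppp1r15a by -0.01 (95% interval -0.44 to 0.42). The eIF2β gene Eif2s2 was at 1532 and 1345 CPM against 1770 and 1734 CPM, a difference of -0.28 with an unadjusted p of 0.0405, and the genotypes do not overlap. The catalytic phosphatase subunit Ppp1cc was at 183 and 218 CPM against 255 and 277 CPM, or -0.41 with an unadjusted p of 0.0237, again with no overlap. Both knockout libraries were below both of wild type for 16.1% of all genes. Map3k20, which encodes ZAK, a kinase that senses stalled and collided ribosomes and acts in part beside Gcn2, was at 15.4 and 9.62 CPM against 7.99 and 5.80 CPM. Its difference was 0.85 (SE 0.252, edgeR adjusted p = 0.649), and it was 0.81 in treated cells. Map3k20 and Dnajc3 were called, higher, with no filter on low counts and in the 4 libraries alone with the replicate block. They were not called under DESeq2 or in the 8 libraries with the block. These settings called 113 of 16481, 71 of 12041, 31 of 10204 and 14 of 12267 genes in total, in the same order. The tagged release factor gene Etf1 was at 202 and 166 CPM against 198 and 185 CPM, a difference of -0.05 (95% interval -0.31 to 0.20), so its footprints overlap between the genotypes.

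Atf4, the main effector of the pathway, showed no difference beyond the spread of wild type. It was at 79.4 and 78.3 CPM in the knockout and 81.3 and 70.7 CPM in wild type, and the knockout values fell between the wild-type ones. The difference was 0.05 on the log2 scale (SE 0.153, 95% interval -0.28 to 0.38). In treated cells Atf4 was at 92.2 and 102.6 CPM against 361 and 255 CPM, a difference of -1.66 (edgeR adjusted p = 0.000558). The difference between these differences, -1.71, passed its own test (edgeR adjusted p = 0.0165). In untreated cells, 20 tested mRNAs with regulatory upstream open reading frames had a median difference of 0.05, with 12 above 0 and 8 below, and 0 were called. Their median in treated cells was -0.54. Ddit3, which encodes the stress factor CHOP, was near the lower limit of detection at 1.68 and 1.63 CPM against 1.599 and 0.502 CPM, and its interval of -0.53 to 1.78 allows a large difference in either direction.

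Genes that ATF4 turns on were likewise not called in the main fit. The list, which also holds targets shared with other factors, had 47 tested members with a median of -0.03. Of these, 21 lay above 0 and 26 below, 0 were called and 7 had an unadjusted p under 0.05. Other settings called 1 member (DESeq2), 1 (replicate block), 3 (the 4 libraries alone with the block) and 3 (no filter). With no filter 2 of the 3 were higher, and under the other settings all were. Herpud1, also an ER stress gene, was called in each. Over all genes these settings called 31 of 10204, 14 of 12267, 71 of 12041 and 113 of 16481, in the same order. Asns, the asparagine synthetase gene, was at 1698 and 1671 CPM in the knockout and 1932 and 1400 CPM in wild type, a difference of 0.02 (95% interval -0.34 to 0.37). The knockout libraries again fall between those of wild type. Psat1, of serine synthesis, followed the same pattern with 592 and 589 CPM against 652 and 395 CPM (difference 0.17, 95% interval -0.39 to 0.73). Chac1, a glutathione-degrading enzyme, was at 4.76 and 5.65 CPM against 3.90 and 7.53 CPM (difference -0.13, 95% interval -0.75 to 0.50). Trib3, a pseudokinase that dampens the response, was at 33.3 and 38.5 CPM against 27.9 and 28.5 CPM. Here both knockout libraries lie above those of wild type, as for 15.6% of all genes. The difference of 0.35 (95% interval 0.06 to 0.63) had an unadjusted p of 0.0214 and an edgeR adjusted p of 0.744.

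**Figure D2:**
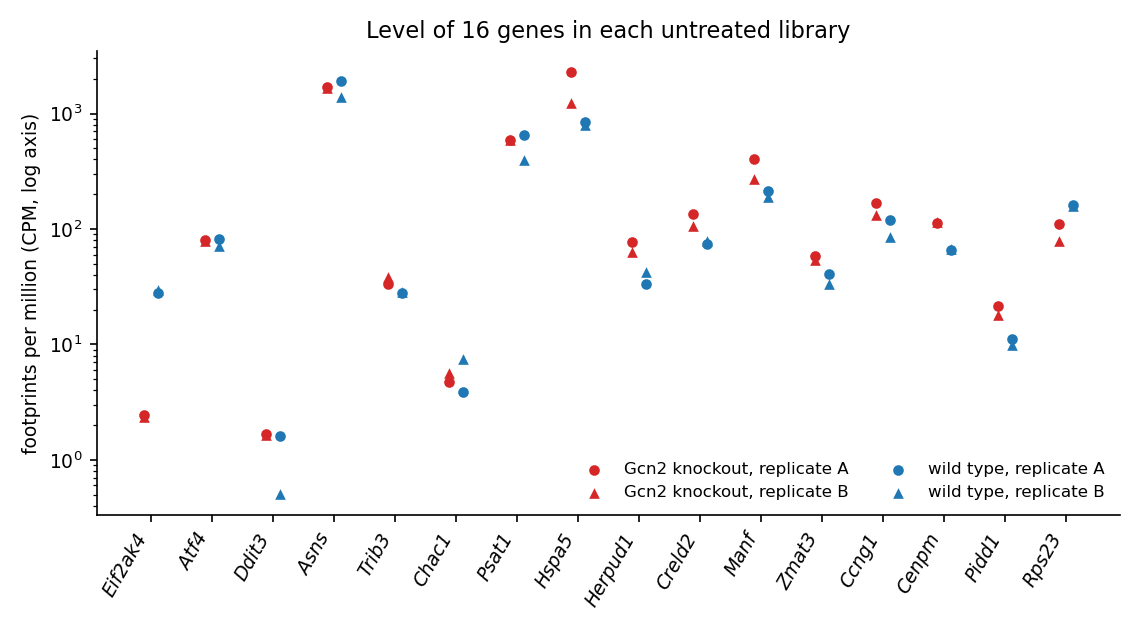
Footprint level of 16 genes in each of the 4 untreated libraries, in CPM on a log axis, with red for the Gcn2 knockout, blue for wild type, circles for replicate A and triangles for replicate B. Eif2ak4 is far lower in both knockout libraries, the Asns and Psat1 knockout values lie between the wild-type replicates, and Hspa5, Herpud1, Creld2 and Manf are higher in both knockout libraries.

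The wild-type replicates differed from each other in their ATF4 targets. Wild-type replicate A was higher than B for 35 of the 47 genes, with a median difference (B minus A) of -0.38 on the log2 scale, against 0.00 for all genes. Without wild-type replicate A the list median for knockout minus wild type was 0.30, and without replicate B it was -0.14, so its sign depends on which wild-type library is kept. The pattern recurred in the treated wild-type libraries, where A was higher than B for 40 of the 47 (median -0.42). The mRNA of untreated wild-type cells did not show it: A was higher for 20 of 44 genes with at least 1 CPM, with a median of 0.01. Whether footprints and mRNA of the same letter came from the same culture is not given. Pck2 and Pycr1 are named for their large differences between the wild-type replicates and are not typical of the list. Pck2, a mitochondrial gluconeogenic enzyme, is not a list member. It was at 132 CPM in wild-type A and 52.7 CPM in wild-type B beside 71.0 and 91.9 CPM in the knockout. Pycr1, a list member of proline synthesis, had 118 and 49.7 CPM in wild type beside 74.1 and 86.0 CPM in the knockout. Over the 12267 genes, the B minus A difference of untreated wild type correlated with that of treated wild type (Pearson r = 0.565 across genes, which are not independent replicates). The same correlation was 0.121 in the knockout and 0.128 between the untreated genotypes. The treated wild-type libraries are thus not wholly separate evidence from the untreated ones of the same letter.

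Related gene groups of amino acid supply had medians near 0 too. The 24 tested cytosolic tRNA synthetases had a median of 0.06 with 17 above 0, the 37 genes of amino acid synthesis and transport a median of 0.02 with 21 above 0, and the 19 of one-carbon and folate metabolism a median of 0.02 with 12 above 0. In each of these 3 lists 0 genes were called, and 2, 2 and 0 had an unadjusted p under 0.05. Both knockout libraries were above both of wild type for 5, 12 and 2 genes (20.8%, 32.4% and 10.5%), beside 15.6% of all genes. They were below for 3, 2 and 2 genes (12.5%, 5.41% and 10.5%), beside 16.1% of all genes. Phgdh, the first enzyme of serine synthesis, was at 189 and 184 CPM in the knockout between 251.2 and 129.0 CPM in wild type. Aars, the alanyl-tRNA synthetase gene, was at 1057 and 1028 CPM against 899 and 837 CPM, a difference of 0.26 (95% interval -0.02 to 0.55).

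**Figure D3:**
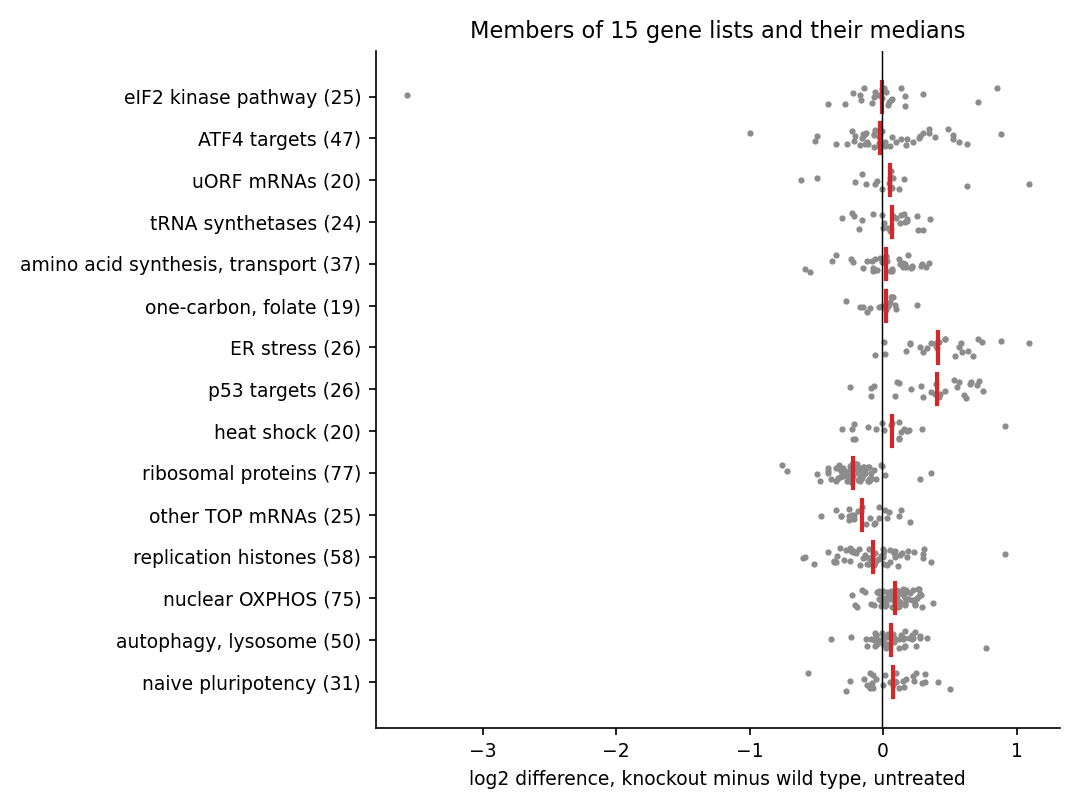
Log2 difference of each tested member (grey points) of 15 gene lists in untreated cells, with the list median in red, the number of members in brackets and a line at the median of all genes. The ER stress and p53 target lists lie to the right with medians of 0.41 each, the ribosomal proteins to the left at -0.23, and the eIF2 pathway and ATF4 target medians lie at the line.

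Genes of the endoplasmic reticulum (ER) stress response and p53 targets had the highest list medians, of which either was the higher depending on the setting. The ER stress response, started by IRE1, ATF6 and PERK when unfolded proteins build up in the ER, raises chaperones, folding enzymes and degradation factors. Of 26 tested members, 25 were above 0 and 1 below, with a median of 0.41 on the log2 scale, 0 were called, and 15 had an unadjusted p under 0.05, all higher. Other settings called 1 member (replicate block), 3 (DESeq2), 6 (the 4 libraries alone with the block) and 10 (no filter), all higher, with Herpud1 called in each. Over all genes these settings called 14 of 12267, 31 of 10204, 71 of 12041 and 113 of 16481, in the same order. Both knockout libraries were above both wild-type libraries for 17 of the 26 and below for 0, where 15.6% of all genes lie above and 16.1% below. The chaperone BiP (Hspa5) was at 2296 and 1225 CPM in the knockout against 850 and 803 CPM in wild type, a difference of 1.09 (SE 0.229, edgeR adjusted p = 0.276). Knockout replicate A is the highest, and the groups do not overlap. Herpud1, an ER-associated degradation factor and also an ATF4 target, was at 76.6 and 62.8 CPM against 33.1 and 42.5 CPM (difference 0.88, SE 0.166, edgeR adjusted p = 0.174). Manf, a secreted ER stress protein, was at 405 and 272 CPM against 215.0 and 190.0 CPM (difference 0.74). Creld2, another secreted ER stress protein, was at 135 and 107 CPM against 73.8 and 78.0 CPM (difference 0.67). All of these separate the genotypes. The lectin chaperone Calr (0.54), the disulfide isomerase Pdia6 (0.57), the PERK-binding co-chaperone Dnajc3 (0.71) and the transcription factor Xbp1 (0.59) followed. Among the sensor genes, Ern1, for IRE1, was at 0.01 and Atf6 at 0.01. The PERK gene Eif2ak3, given above, leaned higher, with overlapping genotypes.

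Many promoters of this group carry the ER stress response element, searched as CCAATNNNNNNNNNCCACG on both strands of the window from 250 bases before to 50 bases after the transcription start (RefSeq, GRCm38.p6). It was present in 9 of the 22 tested list members with a promoter sequence (40.9%) and in 21 of 9704 tested genes with one (0.216%). The 5 stretches shown, with the element in capitals and read 5′ to 3′ on the gene's strand, belong to chaperones and secreted factors among these 9 and show that the element occurs in both orientations.
Hspa5 chr2:34771995-34772073 (+): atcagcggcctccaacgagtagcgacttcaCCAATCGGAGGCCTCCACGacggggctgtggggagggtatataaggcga
Hsp90b1 chr10:86705503-86705686 (-): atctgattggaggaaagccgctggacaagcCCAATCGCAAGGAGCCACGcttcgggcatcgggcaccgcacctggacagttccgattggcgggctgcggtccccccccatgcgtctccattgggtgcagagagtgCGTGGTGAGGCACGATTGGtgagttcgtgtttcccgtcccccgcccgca
Calr chr8:84847045-84847123 (-): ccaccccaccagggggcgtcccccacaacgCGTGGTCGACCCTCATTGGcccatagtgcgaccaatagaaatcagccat
Creld2 chr15:88819490-88819568 (+): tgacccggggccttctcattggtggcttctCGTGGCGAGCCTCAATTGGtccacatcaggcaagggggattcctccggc
Pdia6 chr12:17266461-17266539 (+): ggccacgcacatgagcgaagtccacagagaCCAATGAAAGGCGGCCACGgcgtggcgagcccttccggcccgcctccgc

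Members with the element had a median difference of 0.59, with 9 of 9 above 0, and the 13 members without it a median of 0.36, with 12 of 13 above 0. Across all genes, 21 tested genes held the element, the 9 list members included, and 18 of these were above 0 with a median of 0.23, against -0.01 for the 9683 tested genes with a promoter sequence and no match. In treated cells the median of these 21 was 0.05, and that of the 9 list members 0.45. For comparison, the CARE motif that ATF4 complexes bind, searched as TGATGNAAN on both strands, was present in 12 of 38 ATF4 targets with a promoter sequence (31.6%) and in 2.50% of tested genes with one. The 12 had a median difference of -0.03, with 6 above and 6 below 0. The matches in Asns and Chac1, whose footprint values are given above, are shown with the motif in capitals.
Asns chr6:7693210-7693262 (-): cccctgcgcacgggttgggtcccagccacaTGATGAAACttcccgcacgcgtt
Chac1 chr2:119351018-119351086 (+): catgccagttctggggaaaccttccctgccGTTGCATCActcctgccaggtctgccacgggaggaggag
A match describes the letters of the window and does not show binding.

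The size of the ER difference depended on knockout replicate A. The summed level of the list was 12467 CPM in knockout A and 8258 CPM in knockout B, against 6637 and 7693 CPM in wild type. Without knockout A the list median was 0.19, and without knockout B it was 0.62. The same list in dTAG-13 treated cells had a median of 0.42 with 24 of 26 above 0. There, Creld2 (0.86) and Manf (0.82) were called higher, where 1.86% of all genes were called higher and 1.92% lower. Herpud1, the member with the lowest p in untreated cells, differed by 0.18 in treated cells and was not called.

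The p53 targets are genes of cell cycle arrest, apoptosis and repair that the factor p53 switches on. Of 26 tested members, 22 were above 0 and 4 below, with a median of 0.41, 0 were called, and 9 had an unadjusted p under 0.05, all higher. Both knockout libraries were above both of wild type for 14 and below for 0, beside 15.6% and 16.1% of all genes. DESeq2 called 1 of the list (Zmat3), the fit with the replicate block 1 (Plk2), the 4 libraries alone with the block 8 and the fit with no filter 10, all higher. These settings called 31 of 10204, 14 of 12267, 71 of 12041 and 113 of 16481 genes in total, in the same order. Zmat3, an RNA-binding p53 effector, was at 58.8 and 53.5 CPM in the knockout against 40.3 and 33.5 CPM (difference 0.60, SE 0.131, edgeR adjusted p = 0.249). Ccng1, cyclin G1, was at 169 and 132 CPM against 119 and 85.4 CPM (difference 0.56). Plk2, a kinase of the cell cycle, was at 196 and 129 CPM against 117 and 76.4 CPM (difference 0.75). In all 3 the genotypes do not overlap. For the best known targets the values overlap. Cdkn1a, the p21 gene, was at 237 and 269 CPM against 295 and 169 CPM (difference 0.12), and Mdm2 at 239 and 165 CPM against 169.0 and 92.9 CPM (difference 0.62). Trp53 itself differed by 0.21. Here wild-type replicate B was the low library, as A was higher than B for 21 of the 26 genes. The median was 0.22 without wild-type B and 0.64 without wild-type A. In treated cells it was 0.37, with Ccng1 (1.32), Bax (0.68) and Ei24 (0.61) called higher, beside 1.86% of all genes.

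**Figure D4:**
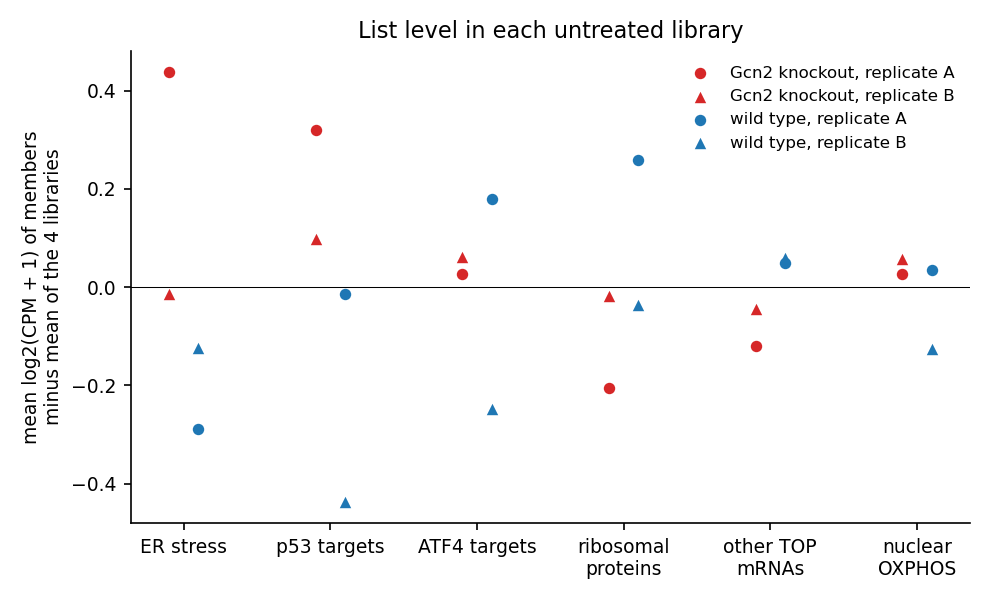
Level of 6 gene lists in each untreated library, with red for the knockout, blue for wild type, circles for replicate A and triangles for replicate B. Each gene's log2(CPM + 1) was taken minus its own mean over the 4 libraries. Points are the median of this over the tested members, although the axis label says mean. For the ER stress list both knockout points lie above both wild-type points with knockout A at 0.44, and for ATF4 targets the wild-type points, at 0.18 and -0.25, enclose those of the knockout.

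Ribosomal protein mRNAs lay below wild type as a group, by small amounts. These mRNAs and others that begin with an oligopyrimidine tract (TOP mRNAs) are translated in proportion to mTOR activity. Of 77 tested, 3 were above 0 and 74 below, with a median of -0.23, 0 were called, 15 had an unadjusted p under 0.05 on the low side, and 1 on the high side. Both knockout libraries were below both of wild type for 31 and above for 2, beside 16.1% and 15.6% of all genes. DESeq2 and the 4 libraries alone with the replicate block each called Rpl22l1 and Rps23, and the fit with no filter 4, all lower. Their totals over all genes were 31 of 10204, 71 of 12041 and 113 of 16481. The 8 libraries with the block, which called 14 of 12267 genes, called none of this list. Rps23 was at 111 and 77.9 CPM in the knockout against 161 and 159 CPM (difference -0.76, SE 0.163, edgeR adjusted p = 0.249). Rpl22l1, a paralog of Rpl22, was at 145 and 152 CPM against 279 and 211 CPM (difference -0.72), and Rps6 at 1706 and 2002 CPM against 2725 and 2433 CPM (difference -0.48). In all 3 the genotypes do not overlap. Many ribosomal protein genes have near-identical pseudogenes, and how reads shared between copies were counted is not given, so single values are uncertain. A list of 25 further TOP mRNAs, which shares Rack1 with the ribosomal proteins, had a median of -0.16 with 19 below 0 and 0 called. Among them, the elongation factor gene Eef1b2 was at 1007 and 1140 CPM against 1602 and 1370 CPM (difference -0.47).

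The ribosomal protein median had the opposite sign in treated cells, and its size depended on the wild-type library. In untreated wild type, replicate A was higher than B for 74 of the 77 (median B minus A -0.29). Unlike for the ATF4 targets, the mRNA leaned the same way, by less. It was higher in A for 66 of 77, with a median of -0.10 against 0.01 for all genes with at least 1 CPM. Without wild-type A the ribosomal protein median was -0.07, and without wild-type B it was -0.37. With dTAG-13 the median was 0.33, with 72 of 77 above 0 and 6 called higher, beside 1.86% of all genes, among them Rps12 (1.03), Rplp1 (1.01) and Rpl12 (0.97). No single ribosomal protein gene was among the 6 (0.0489%) for which the genotype difference itself differed between treated and untreated cells.

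**Figure D5:**
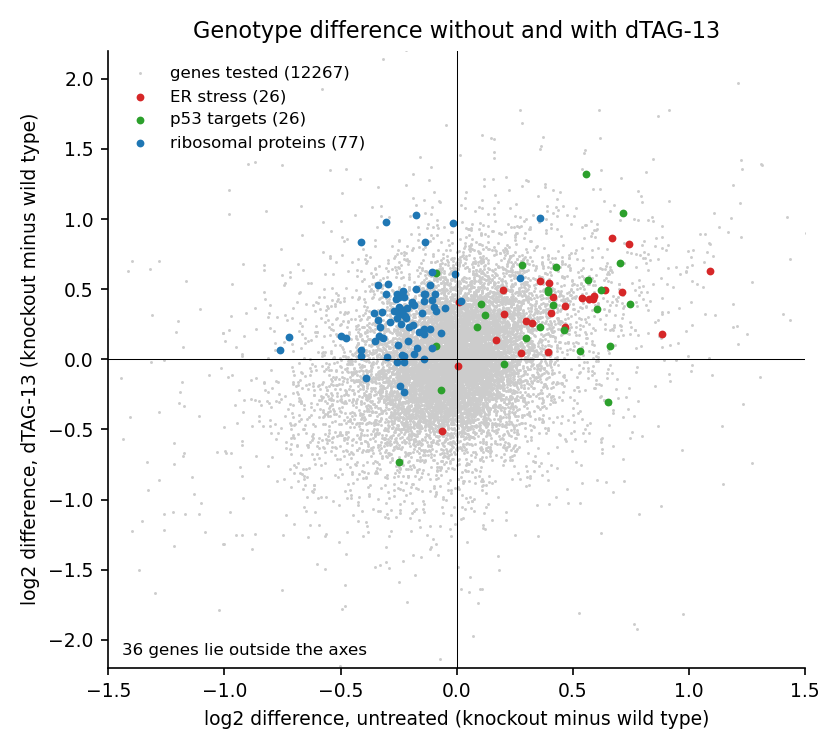
Genotype difference with dTAG-13 (y axis) against that without it (x axis), both as log2 of knockout over wild type, for each tested gene (grey) and for the ER stress (red), p53 target (green) and ribosomal protein (blue) lists. ER stress and p53 members lie mostly above 0 on both axes, and ribosomal proteins lie mostly below 0 untreated and above 0 treated; 36 genes lie outside the axes.

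Most further groups had medians near 0. The 75 nuclear genes of oxidative phosphorylation had a median of 0.09 with 57 above 0. The 50 of autophagy, lysosome and mTOR had a median of 0.06. Both knockout libraries were above both of wild type for 29.3% of the 75 and below for 2.67%. For the 50 these shares were 28% and 2%, and for all genes 15.6% and 16.1%. In treated cells the 75 had a median of 0.20 with 59 above 0. Of them 8 were called higher and 2 lower, beside 1.86% and 1.92% of all genes. The untreated median of the 75 was 0.01 without wild-type B. Heat shock genes (20 tested, median 0.06), genes of glycolysis and hypoxia (28, -0.06), cholesterol synthesis (26, -0.03), naive pluripotency (31, 0.07) and replication histones (58, -0.07) also had small medians. In each of these lists 0 genes were called in untreated cells. General translation factors (35, 0.01), immediate early genes (26, 0.08), imprinted genes (29, -0.02) and germline genes silenced by methylation (32, 0.09) gave 0 calls as well. In the imprinted list, the listed symbol H19 was matched through a synonym to Nckap1, which is counted in its place. Early lineage genes (21, -0.12) and primitive endoderm genes (17, 0.05) also had 0 calls. The fibroblast list was not near 0, with 9 tested, a median of -0.41, 3 above 0 and 6 below, and 0 called. Its median ran from -0.34 to 0.02 with an untreated library left out and was -0.38 in treated cells. The 3 tested two-cell-like genes had a median of -0.27 and 0 calls. The 13 mitochondrially encoded mRNAs are listed at 0 in all 4 libraries and were not tested.

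The genes closest to a call were mostly higher in the knockout, and 19 of 24 were in no list. Of the 24 genes with the lowest p after Eif2ak4 and log2 CPM averaging 3 or more, named after their values were seen, 22 were higher and 2 lower, with edgeR adjusted p from 0.0646 to 0.302. Cenpm, a centromere protein, had the lowest p, with 112 and 116 CPM in the knockout against 66.2 and 66.8 CPM (difference 0.77, SE 0.111). Snx20, a sorting nexin, was at 17.2 and 17.9 CPM against 7.84 and 6.25 CPM (difference 1.31, SE 0.208). Psrc1, a microtubule-binding protein, was at 140 and 113 CPM against 77.9 and 68.1 CPM (difference 0.79). In these 3 genes each knockout library exceeded each wild-type library, as for 15.6% of all genes. Choosing genes by the lowest p in this contrast favours such a separation, so it adds no support. Pidd1, the p53-induced death domain protein that activates caspase 2, was at 21.7 and 17.95 CPM against 11.2 and 9.82 CPM (difference 0.91). Notch1, the signalling receptor, was at 99.1 and 81.8 CPM against 61.6 and 52.5 CPM (difference 0.66), and Plxna1, a semaphorin receptor, at 193 and 146 CPM against 105 and 103 CPM (difference 0.70). The pair that was lower was Rps23, given above, and Carnmt1, the carnosine methyltransferase, at 86.7 and 83.6 CPM against 125 and 127 CPM (difference -0.56).

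The 24 genes were also read in the treated libraries, which are not wholly separate evidence, since they entered the same fit and share letter differences in wild type. Of the 24, 23 had the same sign there, as had 59.3% of all genes, and 21 did not overlap in the same direction, as for 34.5% of all genes. In treated cells 11 of the 24 were called, all higher, beside 1.86% of all genes called higher. Without treated knockout replicate A or B 0 of the 11 were called, with edgeR adjusted p of at least 0.105, and without treated wild-type replicate A or B it was 6 and 2. All 11 stayed above 0 in each case. The 11 were Cenpm (0.66), Snx20 (1.38), Psrc1 (0.74), Klhl26 (0.94), Pidd1 (0.82), Dcxr (0.76), Plxna1 (0.54), Creld2 (0.86), Slc11a1 (0.95), Notch1 (0.64) and Def6 (0.69). By contrast Carnmt1 (-0.07), Rps23 (0.06), Mcm3ap (0.17) and Herpud1 (0.18) were near 0 in treated cells. Snx20 was at 17.5 and 17.04 CPM in treated knockout cells against 8.49 and 5.22 CPM in treated wild type, close to the untreated levels. For none of the 24 did the change in the genotype difference between untreated and treated cells pass its test.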

How the data were processed

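The authors deposited raw counts of footprints and of poly(A) RNA per gene symbol, 1 column per library. Reads were processed with CASAVA 1.4, cutadapt and HISAT2 2.1.0 against mm10, per the submitters' processing notes. The sources used here do not name the counting tool or annotation, or say how shared reads were treated. The column of treated knockout replicate B was matched through its title's letter, since its description repeats that of replicate A.

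The 8 footprint libraries were fitted together with edgeR 4.0.16 (R 4.3.3): filterByExpr with a minimum count of 10, TMM scaling, robust quasi-likelihood fit, contrasts for untreated cells, treated cells and their difference, two-sided, Benjamini-Hochberg adjusted p under 0.05. SEs come from the difference and its F statistic, and intervals are 95%. DESeq2 1.42.0 was an alternative, and the fit was tested on simulated data. The comparison and the 27 gene lists were chosen with earlier results of these data known. Lists are given by counts and medians, with no test.

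Named genes were 10 fixed ones (Eif2ak4, Etf1, Atf4, Ddit3, Asns, Trib3, Chac1, Psat1, Impact and Gcn1), called genes with the largest changes and called list members. As 1 gene was called, list members with values of interest and the 24 genes with the lowest p at an average log2 CPM of at least 3 were added after values were seen. Footprint totals of the 8 libraries ran from 7874804 to 19691716 counts. Replicates of both untreated groups differed by more than counting error (chi-squared per degree of freedom 17.1 in the knockout and 24.8 in wild type).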

Additional observations from a re-analysis of the deposited data

Results flagged for a closer look

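For 6 genes the genotype difference in dTAG-13 treated cells differed from that in untreated cells by a test of the difference itself (edgeR interaction term, adjusted p from 0.0165 to 0.0222). Atf4 had a treated minus untreated difference of -1.71 on the log2 scale, from 0.05 in untreated to -1.66 in treated cells. Msn, which encodes the membrane linker moesin, gave -2.04, from 0.07 to -1.97. Ibtk, an mRNA with upstream open reading frames, gave -1.61, from 0.06 to -1.55. Atic, an enzyme of purine synthesis, gave -1.16, from 0.08 to -1.08. The iron storage gene Fth1 gave 1.57, from -0.34 to 1.23, and the corepressor gene Tle5 gave 1.51, from -0.19 to 1.32. In untreated cells 0 of the 6 were called. The count of 6 fell to 0 when any knockout library was left out.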

How the results depend on the processing

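The single call in untreated cells, Eif2ak4, stood at 1 gene with RLE or upper quartile scaling, a minimum count of 50, the 4 libraries alone and a test against a fold of 1.2. Other settings called more: 31 genes with DESeq2, 113 with no filter on low counts, 14 with the replicate block, 71 for the 4 libraries alone with the replicate block, and 1 to 10 with a replicate left out (10 without knockout B, 4 without wild-type A). Eif2ak4 and 11 others, Cenpm, Dcxr, Herpud1, Hmcn2, Klhl26, Nefm, Pidd1, Psrc1, Slc11a1, Snx20 and Svop, were called under DESeq2, no filter and both fits with the block. The treated count of 464 went to 1228 with no filter, 777 with DESeq2, 916 with the replicate block, 829 for the 4 treated libraries alone, and 6 to 251 with a replicate left out. The count of 6 for the difference between conditions went to 192, 109 and 39 under the first 3 of these, and 0 to 32 with a replicate left out. The cause was not tested. No shared batch is stated for the letters A and B. The B minus A differences correlated at 0.128 between the untreated genotypes and at 0.565 between untreated and treated wild type, and the fit treats all libraries as independent. For 34 named genes, 84 of 442 values under other settings gained a call, 358 stayed on their side of the threshold, and 0 lost a call. Of genes not called, 5 changed sign, all with a replicate left out: Asns (-0.20), Atf4 (-0.04), Psat1 (-0.14) and Chac1 (0.42) without wild-type B, and Etf1 (0.08) without knockout B. Of 312 list medians, 274 moved by less than the replicate spread and 36 of the other 38 came from leaving out a replicate.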
